A study of Mus musculus with 15 samples.

Results

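The knockdown of Tm4sf1 with hairpin 5 in 4T1 cells was examined on 6 of the 15 arrays of the study. These were the 3 arrays labelled as 4T1 with the hairpin shTM4SF1-5 (hairpin 5) and the 3 labelled as 4T1 with the scrambled hairpin (scramble). Every gene detected on 3 or more of the 15 arrays was a candidate. Of the 8228 genes so tested, 144 were detected on none of the 6. 4T1 is an established mouse mammary carcinoma line that metastasises spontaneously in its host. Per the labels, both groups were stable lines made with lentiviral vectors, pLKO for the Tm4sf1 hairpins, so the controls had also been transduced and carried a hairpin without the intended target. The labels do not say whether a line was a clone or a pool. The other 9 arrays held 3 of 4T1 with a second hairpin (shTM4SF1-1, hairpin 1), 3 of 4TO7, a sister line of 4T1, with the empty retroviral vector pBabepuro, and 3 of 4TO7 with pBabepuro-TM4SF1. The labels call the replicates biological but do not say that cultures were grown apart, so p-values measure the spread between these arrays.

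Tm4sf1 encodes a small surface protein that crosses the membrane several times, of the L6 family, which resembles the tetraspanins. Such proteins gather receptors, integrins and signalling enzymes into patches of the plasma membrane. In breast cancer cells TM4SF1 has been studied as an organiser of signalling from the collagen receptor DDR1 to the kinase JAK2 and the transcription factor STAT3, and in endothelial cells for its part in thin cell protrusions. A lentiviral short hairpin is cut into a small RNA that destroys matching messenger RNA, and a scrambled hairpin loads the same machinery without the intended target.

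The 6 arrays differed in brightness before normalization. Mean signal per array ran from 249 to 418.6 with scramble and from 240.4 to 375.6 with hairpin 5, and the number of detected probes from 9436 to 10703 of 25697. After normalization, arrays of a group correlated across genes at r = 0.9868 to 0.9948, and arrays of different groups at 0.9829 to 0.9903. The epithelial label was met in part. Krt8, Krt18 and Krt7, keratins of simple epithelia, were detected on all 6 arrays, with Krt8 at a log2 intensity of 12.26 with scramble and 12.10 with hairpin 5. Krt19, Cdh1, Cldn3, Cldn7 and Muc1 were detected on none of the 6. In RNA from whole cultures, fewer cells of a type and less RNA per cell cannot be told apart.

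The targeted gene was lower on all 3 hairpin 5 arrays. Tm4sf1 (probe ILMN_2462650) stood at log2 normalized intensities of 8.13, 7.98 and 7.99 on the scramble arrays and 7.03, 6.68 and 5.93 on the hairpin 5 arrays. The groups did not overlap, and the hairpin 5 arrays were spread more widely than the controls. The log2 change was -1.48 (SE 0.193, n = 3 and 3, limma adjusted p = 1.75e-05), which is 2.80-fold lower. Tm4sf1 stayed detected on every hairpin 5 array, so transcript remained. Its change with hairpin 1, against the same scramble arrays, was -1.13, and the hairpins did not differ past the threshold (adjusted p = 0.44). Among the 13 measured members of the L6 and tetraspanin family Tm4sf1 was the only one called (7.69%, against 3.51% of all genes).

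Hairpin 5 changed 289 of 8228 genes, which is 3.51%, at an adjusted p under 0.05. Of these, 110 were higher (1.34%) and 179 lower (2.18%) than with scramble. Most changes were small. The median size among called genes was 0.492 on the log2 scale, 151 were under 0.5, and only 6 rises and 9 falls among them reached 1. The arrays of both groups did not overlap for 288 of the called genes, against 20.8% of all genes tested (10.6% apart upwards and 10.2% downwards). A call with so few arrays largely entails this, and the naming rule required it for the largest changes. Lack of overlap in a named gene is therefore a description and not separate evidence. Calls were more frequent among bright genes, with 40 rises and 68 falls among the 2057 genes brightest on average and 12 rises and 20 falls among the 2057 dimmest on average. The number of calls depended on the arrays used. Without scramble replicate 1, 2 or 3 it was 154, 202 and 145. Without hairpin 5 replicate 1, 2 or 3 it was 152, 200 and 257. It was 98 when the dimmer arrays (scramble replicate 3 and hairpin 5 replicate 1) were both left out. Fewer arrays in a group can by themselves lower the number of calls. With arrays scaled by their medians alone it was 15, of which 4 were higher and 11 lower, and 64 of the 78 called genes that the naming rule took besides Tm4sf1 missed the threshold under that scaling. Their changes stayed about as large, with a median size of 0.612 against 0.575 on the log2 scale. Leaving out a single array cost between 13 (hairpin 5 replicate 3) and 22 (hairpin 5 replicate 1 or scramble replicate 3) of these 78 calls. None of these 78 genes changed sign under any alternative.

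**Figure D1:**
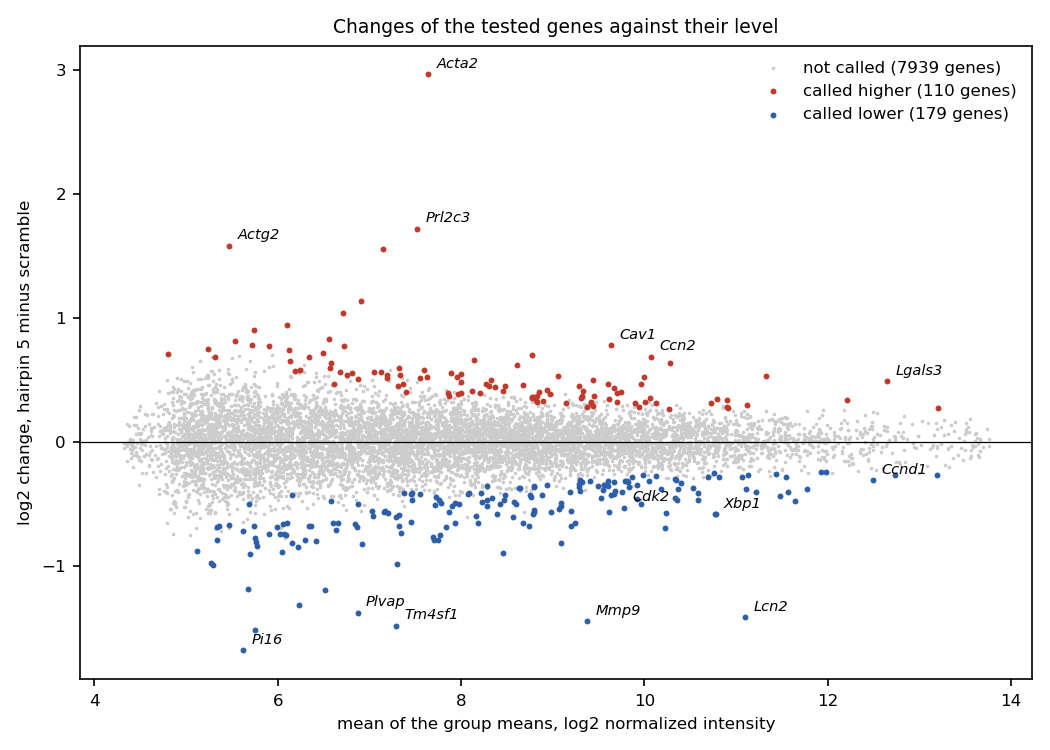
Log2 change with hairpin 5 against scramble (vertical axis) by mean log2 intensity (horizontal axis) for the 8228 genes tested. Called genes are coloured: 110 lie above 0 and 179 below, and Acta2 stands highest at 2.97.

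The largest rise was in smooth muscle actin. Acta2, which encodes alpha smooth muscle actin, the contractile actin of vessel walls and myofibroblasts, stood at 6.24, 6.04 and 6.19 with scramble and 9.25, 9.05 and 9.07 with hairpin 5 (log2 intensity). Every hairpin 5 array lay far above every control array. The change was 2.97 (SE 0.161, adjusted p = 8.73e-13), or 7.83-fold higher. The other 3 Acta2 probes were dimmer. They were detected on all hairpin 5 arrays but on 0, 0 and 1 of the 3 scramble arrays, and those without detection in the controls were at least 1.99-fold and 1.73-fold higher. Actg2, the gamma actin of gut smooth muscle, stood at 4.73, 4.51 and 4.80 with scramble, detected on none of these arrays, and at 6.27, 6.22 and 6.30 with hairpin 5, detected on all. Actg2 was therefore at least 2.06-fold higher (adjusted p = 9.88e-07). Actins are close in sequence, and how far a probe of one reads transcript of another was not tested.

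**Figure D2:**
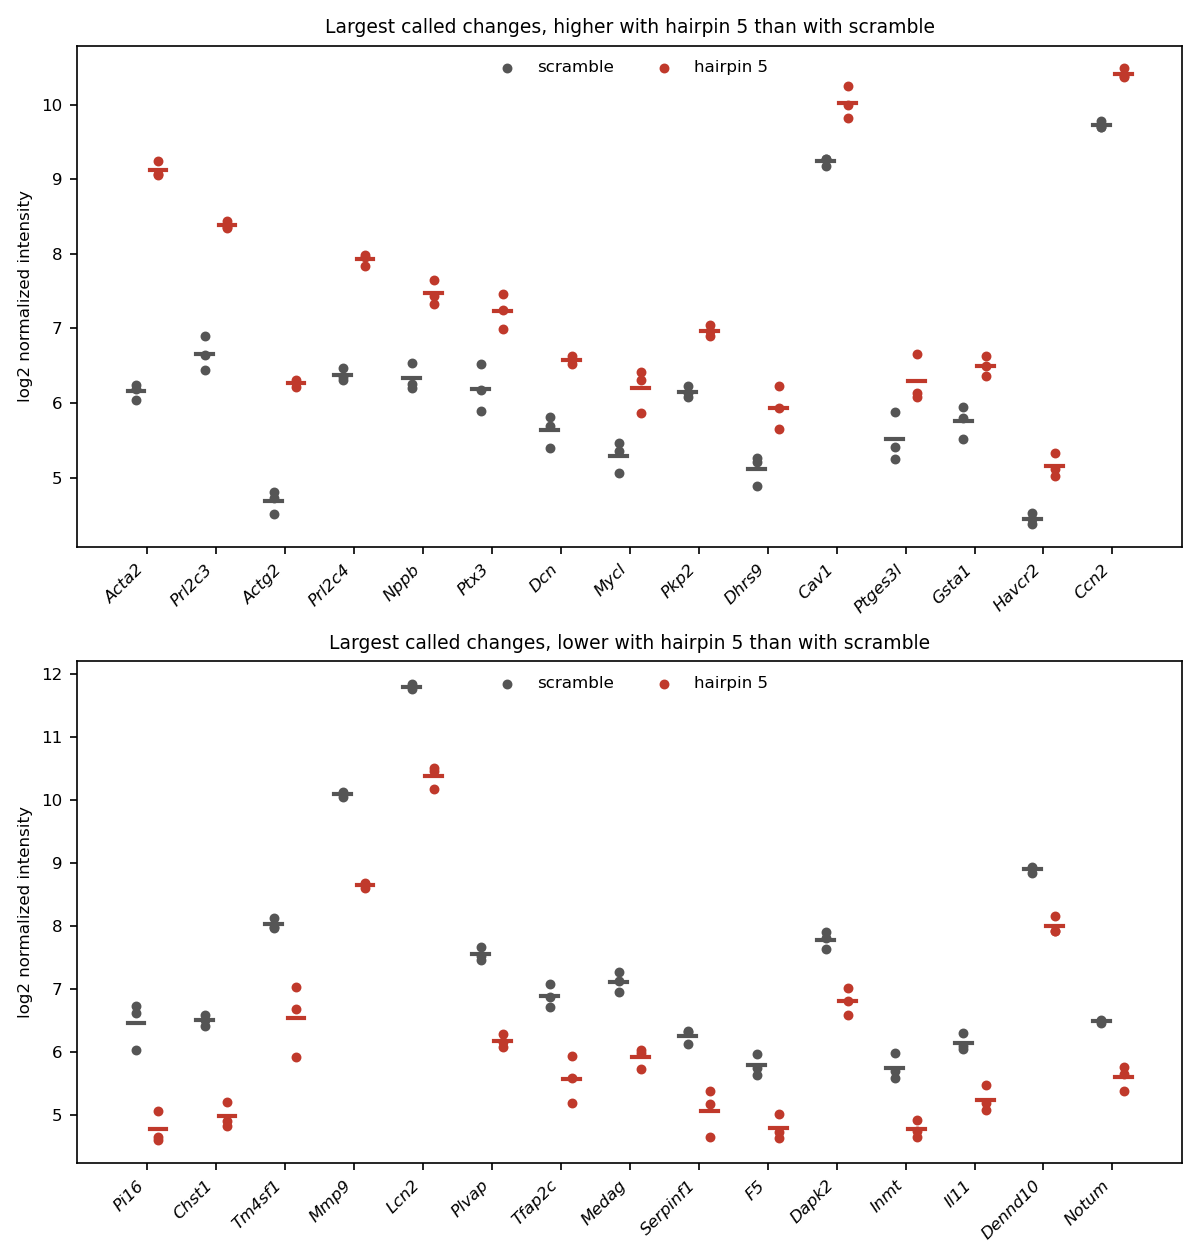
Log2 normalized intensity of the 15 largest rises (upper panel) and 15 largest falls (lower panel) with hairpin 5 among named genes. Points are single arrays, 3 per group, and short lines are group means; Acta2 rose from about 6.16 to 9.12, and Lcn2 fell among bright genes from 11.80 to 10.39.

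Calls among the other contractile genes went both ways. Of 24 measured members of the smooth muscle and contractile list, 3 rose and 1 fell (16.7% called, against 3.51% of all genes), with a median change of 0.11 against 0.01 over all genes. At an unadjusted p under 0.05 there were 8 of the 24, and 1289 of the 8228 genes tested. Csrp1, a LIM protein that binds actin filaments, stood at 9.9997, 9.92 and 9.95 with scramble and 10.63, 10.54 and 10.61 with hairpin 5, without overlap, and rose by 0.64 (SE 0.0851, adjusted p = 2.8e-05). Cnn3, acidic calponin, fell by 0.50 (adjusted p = 0.0288), a call that 8 of 21 alternatives did not keep. Tpm1, a tropomyosin that lies along actin filaments, changed by 0.23 (adjusted p = 0.0611) and Srf, the transcription factor that drives many actin genes, by 0.10 (adjusted p = 0.72). Neither passed the threshold. Among 8 markers of smooth muscle cells and myofibroblasts only Acta2 and Actg2 were detected. The other 6, with Tagln, Cnn1, Myh11 and Des among them, were detected on none of the 6 arrays. The summed signal of the 8 ran from 89.9 to 106.6 with scramble and from 607.1 to 686.3 with hairpin 5. With the other 6 undetected, this sum restates the rise of Acta2 and Actg2. Both were known to move when the markers were chosen.

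Promoter windows are shown for Acta2, Nppb and Ccn1, picked because all 3 rose with hairpin 5 and hold the same hexamer. Capitals mark GGAATG or its reverse complement CATTCC, the core of the motif bound by TEAD proteins, the DNA-binding partners of YAP and TAZ. The windows are the 250 bases before the annotated start in RefSeq, build GRCm38.p6, read 5′ to 3′ on the gene's strand: chr19:34255374-34255623 on the minus strand for Acta2, chr4:147985650-147985899 on the plus strand for Nppb, and chr3:145649986-145650235 on the minus strand for Ccn1.
Acta2: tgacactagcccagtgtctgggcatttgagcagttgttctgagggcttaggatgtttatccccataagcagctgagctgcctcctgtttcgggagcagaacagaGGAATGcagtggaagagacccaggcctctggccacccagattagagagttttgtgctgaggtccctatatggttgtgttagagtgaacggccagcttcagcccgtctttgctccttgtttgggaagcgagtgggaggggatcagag
Nppb: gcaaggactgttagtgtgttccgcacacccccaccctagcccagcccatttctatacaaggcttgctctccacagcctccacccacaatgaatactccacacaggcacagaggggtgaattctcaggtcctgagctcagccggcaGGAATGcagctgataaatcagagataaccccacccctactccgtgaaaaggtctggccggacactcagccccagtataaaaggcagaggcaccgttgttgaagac
Ccn1: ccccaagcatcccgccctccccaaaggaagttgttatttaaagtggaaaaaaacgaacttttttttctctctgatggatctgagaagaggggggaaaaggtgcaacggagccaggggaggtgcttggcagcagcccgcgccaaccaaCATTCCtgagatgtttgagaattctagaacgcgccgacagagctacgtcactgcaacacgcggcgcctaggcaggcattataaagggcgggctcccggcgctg
On either strand, GGAATG occurred in 12.6% of all 32851 such windows in the table. It was in 12.5% of 6262 tested genes with a window, in 14 of 70 genes that rose (20%) and in 14 of 135 that fell (10.4%). Of the named genes that fell, F5, Notch1, Chst1 and Rin2 also hold it, and their windows are not shown. The search also covered the CArG box in its strict form (CC, a run of only A or T, GG), TGANTCA and TATAAA. Forms with another base in that run were not counted. The Acta2 window shown holds such stretches, ccctatatgg and ccttgtttgg, so the strict CArG shares leave Acta2 out. These were in 1.44%, 5.7% and 7.63% of tested genes with a window. Among genes that rose the shares were 0%, 10% and 12.9%, and among those that fell 2.22%, 7.41% and 5.19%. A match describes letters in a window and not a bound site.

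Calls in the YAP and TAZ list, which holds target genes and also the TEAD factor Tead2, went both ways. Of 16 measured members, 2 rose and 2 fell (25%, against 3.51% of all genes), with a median change of 0.21. Tead2 was one of the falls. With scramble replicate 3 and hairpin 5 replicate 1 left out, Ccn2 and Nt5e were the calls. Ccn2, connective tissue growth factor, stood at 9.78, 9.70 and 9.71 with scramble and 10.37, 10.39 and 10.49 with hairpin 5. The groups did not overlap, and the rise was 0.69 (SE 0.0751, adjusted p = 1.08e-06). Ccn1, a matrix protein related to Ccn2, rose by 0.54 (adjusted p = 0.0422). That call was lost in 11 of 21 alternatives, and the other 2 Ccn1 probes gave 0.20 and 0.24. Nt5e, the ecto-enzyme that makes adenosine from AMP, stood at 10.47, 10.53 and 10.72 with scramble and 9.79, 9.90 and 9.94 with hairpin 5, again without overlap. Nt5e fell by 0.69 (SE 0.0875, adjusted p = 1.01e-05). Tead2, a TEAD factor, fell by 0.29 with an adjusted p of 0.0498 that 14 of 21 alternatives did not keep. Ccn5, a CCN protein that lacks the C-terminal domain of its relatives, fell by 0.77 (adjusted p = 0.0141) and was detected on 2 of 3 hairpin 5 arrays.

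Cav1 rose as well. It encodes caveolin-1, the coat protein of the membrane pits called caveolae. Its levels were 9.27, 9.28 and 9.18 with scramble and 10.25, 9.995 and 9.82 with hairpin 5. All 3 hairpin 5 arrays were higher than any control, and the rise was 0.78 (SE 0.0944, adjusted p = 6.05e-06).

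Several hormone and matrix genes rose. Prl2c3 and Prl2c4, proliferins of the prolactin family, were the only 2 of their list that were measured. Prl2c3 stood at 6.90, 6.64 and 6.44 with scramble and 8.36, 8.35 and 8.45 with hairpin 5, far apart, and rose by 1.72 (SE 0.126, adjusted p = 4.24e-10). Prl2c4 rose by 1.55 (SE 0.127, adjusted p = 3.83e-09). Their transcripts are near-identical and the probes may not separate them. Nppb, brain natriuretic peptide, stood at 6.21, 6.53 and 6.26 with scramble and 7.65, 7.43 and 7.33 with hairpin 5. Its groups were clearly apart, with a rise of 1.14 (SE 0.105, adjusted p = 4.65e-08). Ptx3, a secreted pattern-recognition protein, rose by 1.04 and its second probe gave 0.85. Dcn, the matrix proteoglycan decorin, rose by 0.94 from levels near the detection limit, and its second probe gave 0.45. Lgals3, galectin-3, a lectin that binds cell-surface sugars, was one of the brightest genes to rise, from 12.41, 12.40 and 12.39 to 12.92, 12.84 and 12.91, a change of 0.49 (adjusted p = 3.21e-04). Among fibroblast markers Dcn was the only one called, 6 of 9 were detected on none of the 6 arrays, and the summed signal ran from 914.5 to 989 with scramble and from 807.4 to 940.9 with hairpin 5.

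Extracellular proteases and their inhibitors fell where they were called. Of 26 measured, 5 fell and 0 rose (19.2%, against 3.51% of all genes), with a median of -0.05. Mmp9, gelatinase B, which degrades type IV collagen, stood at 10.11, 10.05 and 10.13 with scramble and 8.68, 8.68 and 8.60 with hairpin 5. Replicates lay close together in both groups, far apart from the other group, and Mmp9 fell by 1.45 (SE 0.0849, adjusted p = 3.07e-12). Pi16, a peptidase inhibitor, fell by 1.68 and was detected on 1 of 3 hairpin 5 arrays. Serpinf1, the secreted serpin known as PEDF, fell by 1.19 and was also detected on 1 of 3. Ctsl, the lysosomal cysteine protease cathepsin L, fell by 0.55, and Mmp14, a membrane-bound collagenase, by 0.33 (adjusted p = 0.0216), which 7 of 21 alternatives did not keep.

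Known targets of STAT3 gave 4 falls and 0 rises among 18 measured genes (22.2%, against 3.51% of all genes). The median was -0.06. Mmp9 is one of the 4. Lcn2, the secreted iron-siderophore carrier lipocalin-2, stood at 11.81, 11.76 and 11.84 with scramble and 10.52, 10.46 and 10.18 with hairpin 5. This bright transcript did not overlap between groups and fell by 1.42 (SE 0.0776, adjusted p = 8.73e-13), or 2.67-fold. Ccnd1, cyclin D1, fell by 0.31 (adjusted p = 0.0257) and Cebpb, a C/EBP transcription factor, by 0.24 (adjusted p = 0.0423); 9 and 13 of 21 alternatives did not keep these calls. With scramble replicate 3 and hairpin 5 replicate 1 left out, Mmp9 and Lcn2 were the calls of this list.

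The transcripts of the DDR1, JAK2 and STAT3 axis itself gave 1 call among 19 measured (5.26%, against 3.51% of all genes). That was Il11, a cytokine of the interleukin-6 family, at 6.30, 6.11 and 6.05 with scramble and 5.08, 5.20 and 5.48 with hairpin 5. It was detected on 1 of 3 hairpin 5 arrays, did not overlap, and fell by 0.90 (SE 0.151, adjusted p = 4.71e-04). Ddr1, the collagen receptor, changed by -0.37 (adjusted p = 0.25). Jak2 and Stat3 changed by less than 0.01 in size, with adjusted p-values of 0.995 and 0.996. Socs3, a feedback inhibitor that STAT3 induces, changed by -0.25 (adjusted p = 0.18). The arrays measured transcripts and not phosphorylation. Of 10 measured stem and pluripotency genes 0 were called, against 3.51% of all genes. At an unadjusted p under 0.05 there was 1 of the 10, and 1289 of the 8228 genes tested. The largest change in this list was 0.32 for Klf5 (adjusted p = 0.103), a Krüppel-like transcription factor.

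**Figure D3:**
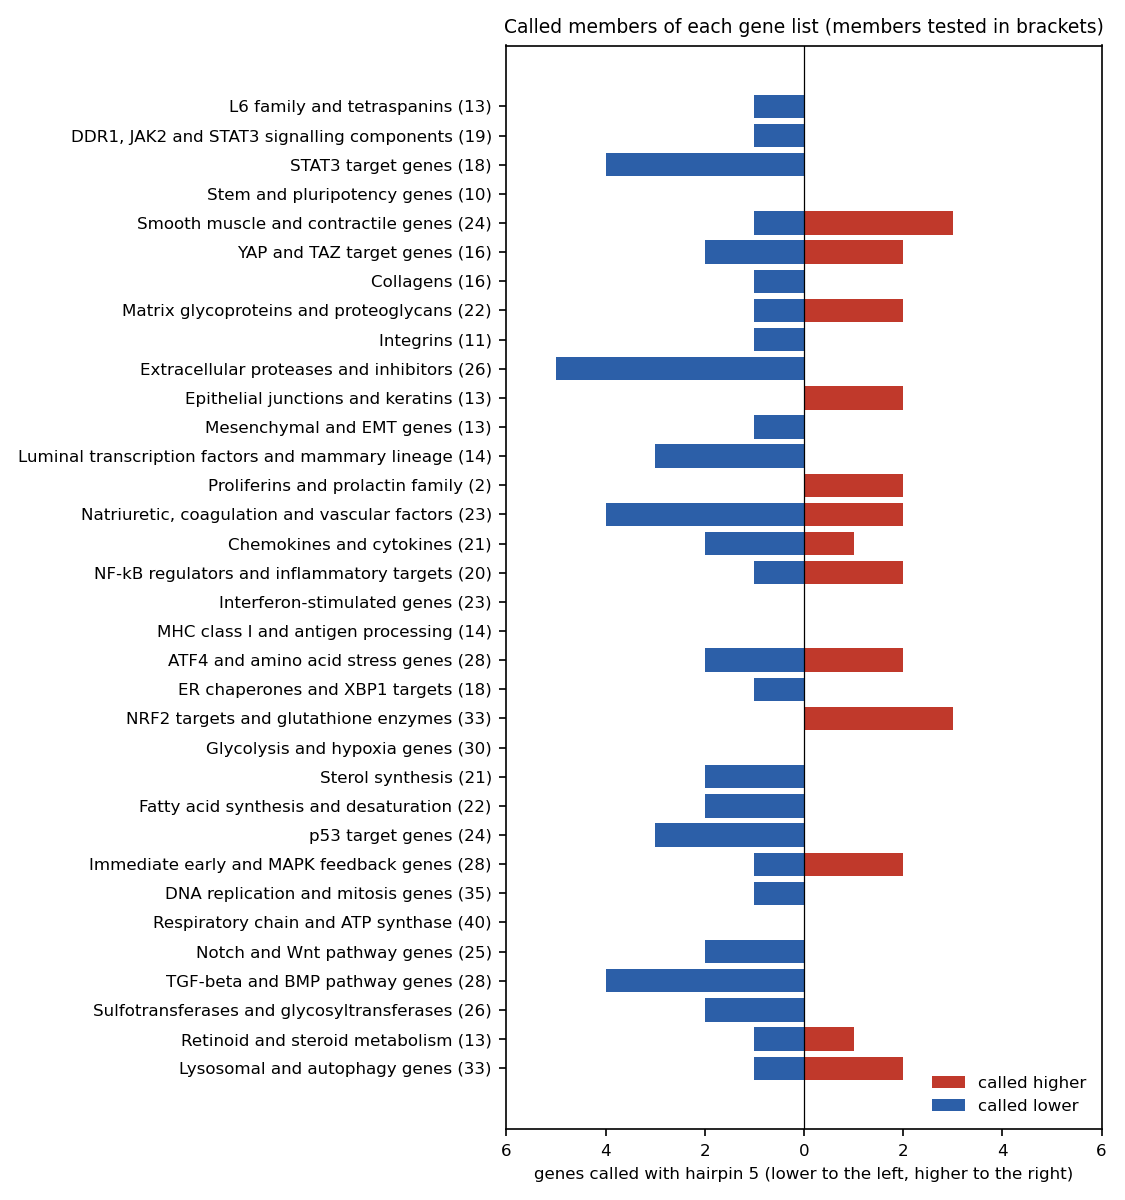
Number of called genes in each gene list shown, with hairpin 5 against scramble, falls to the left (blue) and rises to the right (red), with the number of measured members in brackets. The protease list has 5 falls and 0 rises of 26, the smooth muscle list 3 rises and 1 fall of 24, and the interferon, glycolysis and respiratory chain lists have no bar.

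In the TGF-beta and BMP pathway 4 of 28 measured genes fell and 0 rose (14.3%, against 3.51% of all genes). The median was -0.06. Tgfbr1, the type I receptor, stood at 11.09, 11.05 and 11.03 with scramble and 10.68, 10.34 and 10.41 with hairpin 5. Its arrays did not overlap, and the fall was 0.58 (SE 0.0911, adjusted p = 2.05e-04), with -0.86 from a second probe and a level at least 1.14-fold lower from another that no hairpin 5 array detected. Tgfbr3, the co-receptor betaglycan, fell by 0.66, and Ltbp3, which holds latent TGF-beta in the matrix, by 0.32. Their second probes gave -0.29 and -0.32. Tgfbi, a secreted matrix protein induced by TGF-beta, was detected on all scramble arrays and on no hairpin 5 array. This makes its level at least 1.30-fold lower (adjusted p = 0.003). With scramble replicate 3 and hairpin 5 replicate 1 left out, Tgfbr1 was the only one of the 4 called.

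Collagens and integrins gave 1 call each, both falls. Col6a1, a chain of the collagen VI microfibril, was the call among 16 measured collagens (6.25%, against 3.51% of all genes). It stood at 9.51, 9.66 and 9.55 with scramble and 8.96, 8.86 and 8.93 with hairpin 5, without overlap, and fell by 0.65 (SE 0.0806, adjusted p = 6.92e-06). Itgb5, an integrin beta chain that pairs with alpha v, fell by 0.37 (adjusted p = 0.0373) as the single call among 11 integrins (9.09%), lost in 11 of 21 alternatives. Itga6 and Itgb1, integrin chains known to associate with tetraspanins, changed by -0.12 and -0.06 and were not called. Pkp2 and Ppl, the desmosome proteins plakophilin 2 and periplakin, rose by 0.83 and 0.46. They were the only calls among 13 measured junction and keratin genes (15.4%, against 3.51% of all genes). The median of that list was -0.07, and Krt8, Krt18 and Krt7 changed by -0.16, -0.07 and -0.15 without a call. A second Ppl probe gave -0.03 from a signal near the detection limit. The other Pkp2 probes gave 0.96 and 0.23, the latter also near that limit.

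Vascular and coagulation genes were called in 6 of 23 cases (26.1%, against 3.51% of all genes), 2 higher and 4 lower. Nppb and Ptx3 were the rises. Plvap, which forms the diaphragms of endothelial fenestrae and caveolae, stood at 7.54, 7.47 and 7.67 with scramble and 6.09, 6.16 and 6.29 with hairpin 5. The groups were far apart, and Plvap fell by 1.38 (SE 0.16, adjusted p = 2.9e-06). It was the only 1 of 8 endothelial markers detected, and the other 7 were detected on none of the 6 arrays. F5, coagulation factor V, was detected on all scramble arrays and no hairpin 5 array, and was at least 1.52-fold lower (adjusted p = 0.00244). Sema3f, a secreted repellent of axons and vessels, fell by 0.37. Efnb1, an Eph receptor ligand, fell by 0.50 with an adjusted p of 0.0409 that 14 of 21 alternatives did not keep. With scramble replicate 3 and hairpin 5 replicate 1 left out, this list held 2 rises and 2 falls.

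Lineage and developmental regulators fell where they were called. Tfap2c, a transcription factor of luminal mammary cells, stood at 7.08, 6.87 and 6.72 with scramble and 5.20, 5.94 and 5.58 with hairpin 5, detected on 2 of 3 of the latter. It fell by 1.32 (SE 0.203, adjusted p = 1.7e-04), and a second probe near the detection limit gave -0.50. Eya2, a transcriptional co-activator of development, fell by 0.84 (adjusted p = 0.0277), with 1 of 3 hairpin 5 arrays detected and the call lost in 9 of 21 alternatives. With Xbp1 these made 3 falls and 0 rises among 14 measured genes (21.4%, against 3.51% of all genes). Among 25 genes of the Notch and Wnt pathways 2 fell and 0 rose (8%, against 3.51% of all genes). Their median was -0.19. Notum, a secreted enzyme that inactivates Wnt proteins, fell by 0.89, and Notch1, the receptor, stood at 9.28, 9.24 and 9.27 with scramble and 8.81, 8.65 and 8.63 with hairpin 5. Notch1 did not overlap between groups and fell by 0.57 (SE 0.106, adjusted p = 0.00166).

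Inflammatory genes were called in both directions. Among 21 chemokines and cytokines 1 rose and 2 fell (14.3%, against 3.51% of all genes). Cxcl16, a membrane-bound chemokine, rose by 0.58 (adjusted p = 0.00689), while Il11 and Csf3, the granulocyte growth factor G-CSF, fell. Csf3 fell by 0.72 (adjusted p = 0.00994) and was detected on 2 of 3 hairpin 5 arrays. Vcam1, an adhesion molecule for leukocytes, rose by 0.28 with an adjusted p of 0.0435 that 11 of 21 alternatives did not keep. Havcr2, the immune checkpoint receptor TIM-3, was called higher (adjusted p = 0.0435) from signals detected on no scramble array and 2 of 3 hairpin 5 arrays, too near background for a fold, and 15 alternatives did not keep it. Of 6 leukocyte and macrophage markers on the array only Cd14 was detected, and Ptprc, which all leukocytes carry, was not.

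Cdk2 was the only call among 35 DNA replication and mitosis genes (2.86%, against 3.51% of all genes). It encodes a cyclin-dependent kinase of S phase entry. Its levels were 10.06, 10.06 and 10.01 with scramble and 9.64, 9.52 and 9.38 with hairpin 5. The groups did not overlap, and Cdk2 fell by 0.53 (SE 0.0789, adjusted p = 1.08e-04). Its 3 other probes gave -0.57, -0.54 and -0.53. At an unadjusted p under 0.05 there were 5 of the 35, and 1289 of the 8228 genes tested. Other genes of the cycle, picked after their values were seen, were not called. Ccna2 changed by -0.01, Cdk1 by 0.03, Pcna by 0.07 and Mcm2 by -0.05. Of 24 measured p53 targets 3 fell and 0 rose (12.5%, against 3.51% of all genes). Gadd45a, which acts in growth arrest and DNA repair, stood at 9.42, 9.44 and 9.64 with scramble and 8.62, 8.68 and 8.75 with hairpin 5. These arrays were clearly separate, and Gadd45a fell by 0.81 (SE 0.0994, adjusted p = 6.85e-06), with -0.86 from its second probe. Sesn1, a stress-induced inhibitor of mTORC1 signalling, fell by 0.65, and the third fall was Ccnd1. A dimmer second Sesn1 probe gave -0.19.

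The stress response lists held 8 calls, with shares above the 3.51% of all genes. Xbp1, a transcription factor of the unfolded protein response, stood at 11.01, 11.09 and 11.11 with scramble and 10.43, 10.45 and 10.57 with hairpin 5. It did not overlap and fell by 0.59 (SE 0.0891, adjusted p = 1.47e-04). It was the single call among 18 ER chaperones and XBP1 targets (5.56%), whose median was -0.16. Hspa5, the chaperone BiP, changed by -0.44 (adjusted p = 0.35). Of 28 genes of the ATF4 response, 2 rose and 2 fell (14.3%). Chac1, which degrades glutathione, rose by 0.40 and Nupr1, a stress-induced chromatin protein, by 0.31, while Slc7a5, a leucine transporter, fell by 0.35, and Cebpb fell too. Targets of NRF2 gave 3 rises and 0 falls among 33 measured (9.09%). Gsta1, a glutathione transferase, rose by 0.75, Gclm, the modifier subunit of the enzyme that starts glutathione synthesis, by 0.62, and Mgst3, a microsomal glutathione transferase, by 0.45. With scramble replicate 3 and hairpin 5 replicate 1 left out, the ATF4 list held 1 fall, Slc7a5, and the NRF2 list 2 rises and 1 fall, Gstm5.

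Every gene called in the 2 lipid lists fell. Medag, which promotes fat cell formation, stood at 7.13, 7.28 and 6.95 with scramble and 5.74, 6.03 and 5.99 with hairpin 5. All hairpin 5 arrays were well below the controls, and Medag fell by 1.20 (SE 0.108, adjusted p = 3.04e-08), with -1.40 from its second probe. Elovl6, a fatty acid elongase, fell by 0.46. With Medag it made 2 falls and 0 rises among 22 genes (9.09%, against 3.51% of all genes). In sterol synthesis Msmo1 fell by 0.42 and Sqle, squalene epoxidase, by 0.27, 2 of 21 measured (9.52%, against 3.51% of all genes). Both sat near the threshold, and 9 and 13 alternatives did not keep them. A second Sqle probe gave -0.15. Hsd11b1, which activates glucocorticoids, fell by 0.79, and its other probes, detected on no hairpin 5 array, were at least 1.26-fold and 1.38-fold lower. Dhrs9, a retinol dehydrogenase, rose by 0.82, and its second probe gave 0.36 near the detection limit. Among 26 sulfotransferases and glycosyltransferases 2 fell and 0 rose (7.69%, against 3.51% of all genes). Chst1, which sulfates keratan and related glycans, fell by 1.52 and was detected on 1 of 3 hairpin 5 arrays. Fut8, which adds core fucose to N-glycans, fell by 0.56, and its other probes gave -0.52 and -0.05.

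Other bright genes were called with modest changes. Rin2, an exchange factor for Rab5, stood at 10.52, 10.53 and 10.53 with scramble and 10.03, 9.93 and 9.89 with hairpin 5, and fell by 0.57. Anxa6, a membrane-binding annexin, fell by 0.57 as well. Sqstm1, the autophagy receptor p62, rose by 0.34, and Atp6v0d1, a subunit of the lysosomal proton pump, rose by 0.35, although its other 3 probes gave 0.18, 0.13 and 0.13. Vti1b, a SNARE of endosomes, rose by 0.43 on one probe and changed by -0.01 on another. Car13, a cytosolic carbonic anhydrase, rose by 0.52. Dusp1, a phosphatase that switches off MAP kinases, rose by 0.41 and Mycl, a relative of Myc, by 0.90 among 28 immediate early and feedback genes, of which Phlda1 fell by 0.32 with a call that 12 of 21 alternatives did not keep.

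Some lists held no call. Over all 8228 genes tested, 3.51% were called and 1289 had an unadjusted p under 0.05. At that share of calls, lists this short can hold 0. Of 23 interferon-stimulated genes 0 passed, and 4 had an unadjusted p under 0.05. The same held for 30 glycolysis and hypoxia genes, with 0 called and 4 at that p, and for 40 respiratory chain genes, with 0 called and 9. Among 14 genes of MHC class I and antigen processing 0 were called and 2 had an unadjusted p under 0.05. Psmb8, an immunoproteasome subunit, had the largest change there, -0.50 (adjusted p = 0.194), Car12 among glycolysis and hypoxia genes, -0.41 (adjusted p = 0.262), and Sdhd among respiratory genes, -0.38 (adjusted p = 0.272).

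Detection itself differed for 13 genes. On all hairpin 5 arrays and no scramble array, 7 were detected, of which only Actg2 was called. Ifit2, an interferon-induced protein, was at least 1.43-fold higher (adjusted p = 0.125), Togaram2 at least 1.21-fold, Pde7a at least 1.09-fold and Atf3 at least 1.08-fold, and none of these 4 was called. In the other direction 6 genes were detected, of which F5, Inmt and Tgfbi were called. Inmt, a methyltransferase of indole amines, was at least 1.49-fold lower (adjusted p = 2.82e-04). Selenbp2 and Sgsm2 were at least 1.33-fold and 1.21-fold lower without a call. These folds are lower bounds, from the bright group's mean against the lowest detected signal of each array of the dim group.

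Dim genes also depended on how background was removed. Without background correction the change was 0.58 for Actg2, 0.43 for Dcn, 0.67 for Nppb, -0.65 for Pi16, -0.60 for Chst1, -0.46 for Serpinf1 and -0.35 for Il11. All kept their direction. For bright genes the values moved less, with Mmp9 at -1.28 and Lcn2 at -1.36. Acta2 gave 2.05.

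A second probe was available for 81 of the called genes, 117 other probes in all. Of these, 108 gave the same sign as the probe used, 62 with an unadjusted p under 0.05, and 0 gave the opposite sign at that p. Probes of Cdk2, Gadd45a and Col6a1 differed by less than their SEs.

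**Figure D4:**
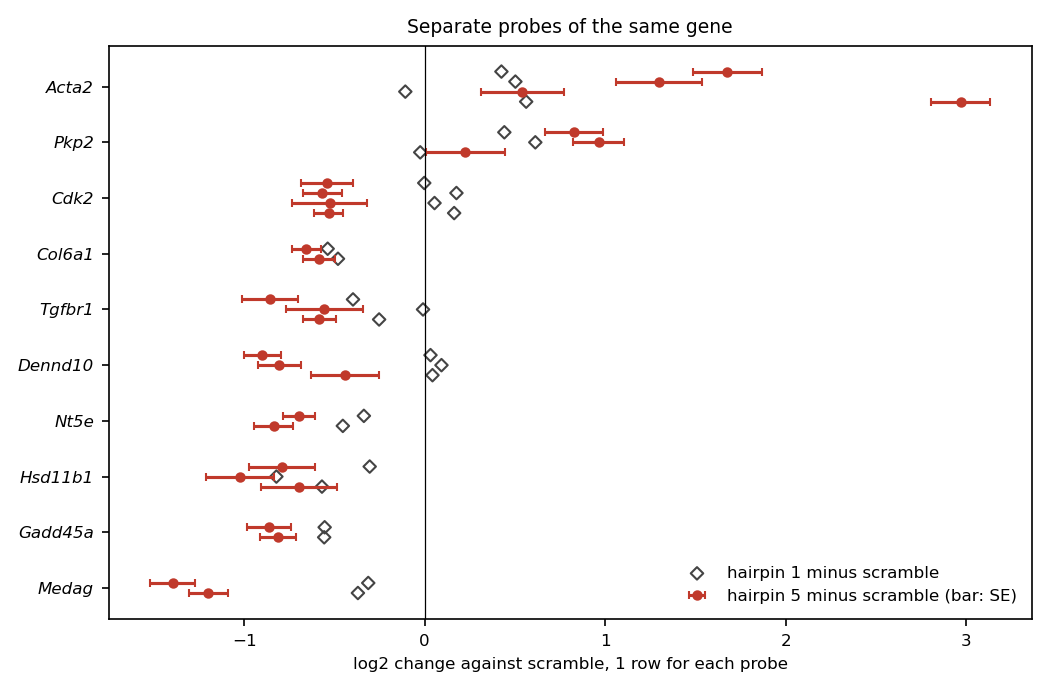
Log2 change against scramble from each separate probe of 10 called genes, for hairpin 5 (filled circles, bars are SE) and hairpin 1 (open diamonds), with 1 row per probe. The 10 were picked by hand from the 81 called genes with more than 1 probe, so they do not show how often probes concur. The Cdk2 probes lie between -0.57 and -0.53 with hairpin 5. Of the Acta2 points only the one at 2.97 comes from a probe detected on all scramble arrays, and the positions of probes undetected in a group are not measured sizes.

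The hairpins were also compared with each other, since they share the target and differ in sequence. Hairpin 1 changed 480 genes against the same 3 scramble arrays (5.83%), 247 higher (3%) and 233 lower (2.83%). Of the 110 genes that rose with hairpin 5, hairpin 1 had 64 called higher and 0 lower, and of the 179 that fell it had 79 called lower and 0 higher. As both comparisons share the scramble arrays, these counts do not stand as independent evidence. Tested directly, hairpin 5 differed from hairpin 1 at 152 genes (1.85%), 49 higher (0.596%) and 103 lower (1.25%). That count was 100, 80 and 90 without hairpin 1 replicate 1, 2 or 3. It was 91, 105 and 160 without hairpin 5 replicate 1, 2 or 3, and 43 with the dimmest array of both groups left out. Among the genes called with hairpin 5, 48 were called in this difference. Of these, 38 had the larger change with hairpin 5, 10 the smaller, and 20 had opposite signs with the hairpins. Requiring a call with hairpin 5 favours a larger change there. The opposite signs include changes near 0 with hairpin 1, such as 0.03 for Dennd10. As given above, 0 genes were called in opposite directions with the hairpins.

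Acta2 and Actg2 led the genes that were higher with hairpin 5 than with hairpin 1. Acta2 changed by 0.56 with hairpin 1 and differed by 2.41 (adjusted p = 1.92e-10). Actg2 changed by -0.03 with hairpin 1 and differed by 1.61 (adjusted p = 2.74e-06). Actg2 was detected on no scramble and no hairpin 1 array, so its -0.03 compares background signals and its 1.61 is not a measured size. Cav1 changed by 0.05 with hairpin 1, a difference of 0.74 (adjusted p = 3.75e-05). Dcn, Ppl, Vcam1 and Ccn2 were likewise higher with hairpin 5, by 0.72, 0.53, 0.41 and 0.30.

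The genes lower with hairpin 5 than with hairpin 1 included some whose change under hairpin 1 was not called. Dennd10, a DENN-domain protein of late endosomes, stood at 8.93, 8.94 and 8.85 with scramble and 8.17, 7.93 and 7.92 with hairpin 5. It fell by 0.90 without overlap (SE 0.103, adjusted p = 2.47e-06), its other probes gave -0.80 and -0.44, and with hairpin 1 it changed by 0.03. Kpna1, an importin alpha that carries proteins into the nucleus, stood at 7.22, 7.36 and 7.43 with scramble and 6.62, 6.50 and 6.41 with hairpin 5. It fell by 0.82 (SE 0.119, adjusted p = 8.38e-05), and changed by 0.02 with hairpin 1. Cdk2 changed by 0.16 with hairpin 1 and differed by -0.69 (adjusted p = 4.34e-06). Medag, Ccn5, Il11 and Xbp1 also differed, by -0.83, -0.84, -0.72 and -0.46. Other genes rose with both hairpins and less with hairpin 5. Prl2c3 rose by 2.22 with hairpin 1, Prl2c4 by 2.18, Chac1 by 1.16 and Gsta1 by 1.50. Whether a difference follows from the target or from other transcripts that a hairpin's sequence meets was not tested.

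**Figure D5:**
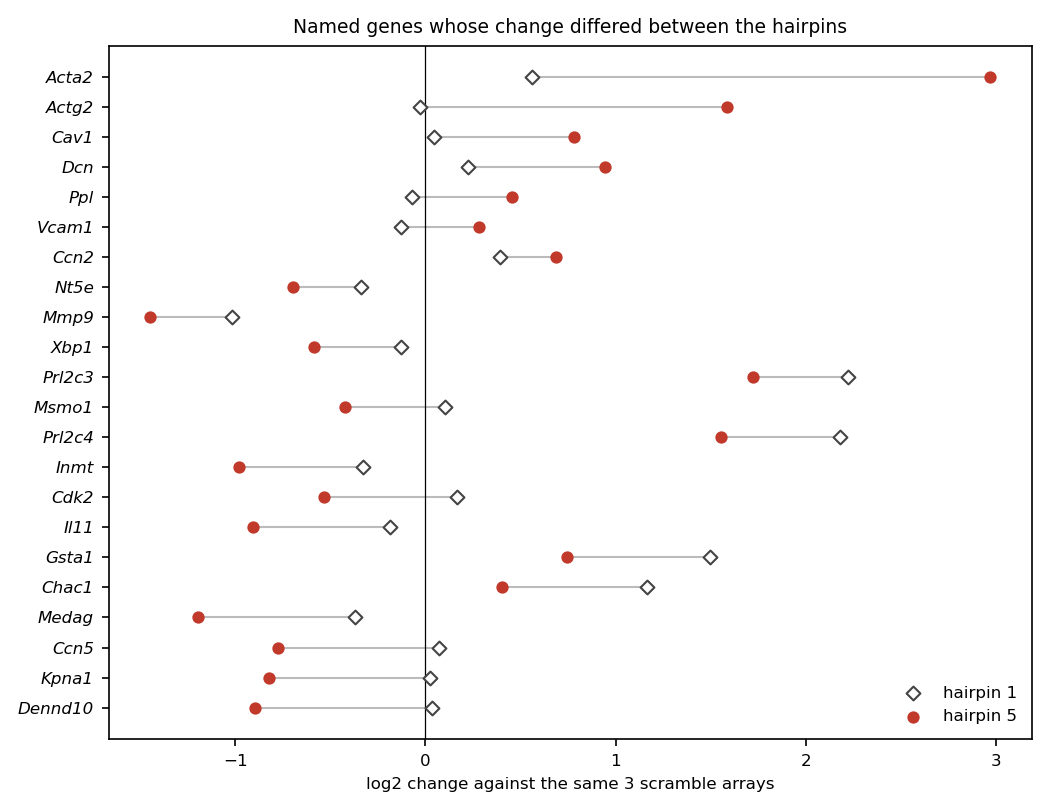
Log2 change of named genes that differed between the hairpins, with hairpin 5 (filled circles) and hairpin 1 (open diamonds), each against the same 3 scramble arrays. Acta2 stands at 2.97 and 0.56, Dennd10 at -0.90 and 0.03, and Chac1 at 0.40 and 1.16. Actg2 was undetected with scramble and with hairpin 1, so its positions are not measured sizes.

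The arrays labelled 4TO7 with TM4SF1 were compared with those of the empty vector. Tm4sf1 itself stood at 8.64, 7.81 and 8.25 with the vector and 8.49, 8.26 and 8.36 on the arrays labelled TM4SF1. These groups overlapped, and the change was 0.14 (SE 0.193, limma adjusted p = 0.933), so this probe does not bear out the label. Whether the probe lies within the introduced sequence is not known here. At an adjusted p under 0.05, 2 of 8228 genes were called (0.0243%), both higher, and 596 had an unadjusted p under 0.05. Of the genes that rose with hairpin 5 in 4T1, 1 of 110 was called there, and of the 179 that fell, 0 were. The one gene was Slco4a1, an organic anion transporter. It stood at 9.79, 9.74 and 9.67 with scramble and 10.26, 10.08 and 10.24 with hairpin 5, rose by 0.47 (SE 0.0895, adjusted p = 0.00226), and was 0.57 higher on the 4TO7 arrays labelled TM4SF1 (limma adjusted p = 0.00435).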

How the data were processed

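Arrays were Illumina mouse BeadChips hybridised with biotinylated cRNA made from Trizol-extracted total RNA, per the labels' protocols. Each probe's average bead intensity before any normalization was deposited, along with the standard error of that signal, the bead count and a detection p-value, per the file headers. GenomeStudio is named per the submitters' processing notes, without a version. The median probe had 35 to 38 beads on the 6 arrays, and the number of arrays limits the precision (median SE of a log2 change 0.13).

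From the deposited intensity, limma's normexp correction was applied, with negative controls inferred from the detection p-value and an offset of 16, followed by quantile normalization and log2. A probe had to be detected (p under 0.01) on 3 or more of the 15 arrays, which 11109 of 25697 were. Of all probes, 23978 had 1 symbol in the platform annotation, 0 several and 1719 none; 23962 matched RefSeq (GRCm38.p6). The brightest probe of each symbol gave 8228 genes, 652 of them unnamed probes. All columns were matched to samples by name.

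A group-means model with a mean-variance trend was fitted over the 15 arrays (limma 3.58.1, R 4.3.3, with 10 residual and 16.17 prior degrees of freedom). Its two-sided p-values were adjusted by Benjamini-Hochberg over all genes, with calls at 0.05. The arrays share 3 replicate numbers, but deviations of same-numbered arrays correlated at -0.025, -0.11 and -0.15, so the numbers were not taken as pairs. An exact permutation of 3 against 3 cannot go below 0.1.

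Genes and the 35 lists were chosen with earlier results of these data known, so the shares called within lists can be raised by that choice. The result of 1 list is not reported here. The naming rule took Tm4sf1, up to 15 rises and 15 falls by size among called genes without overlap, up to 8 each way among the 2057 brightest genes, up to 5 called members per list (or the largest change where none was called), 5 each way for the difference of the hairpins and 5 each way by detection. Probes without a symbol, predicted genes and pseudogenes were passed over. Ddr1, Jak2, Stat3, Socs3, Srf, Tpm1, Hspa5, Itga6, Itgb1, Ccna2, Cdk1, Pcna, Mcm2, Sema3f and Gstm5 are named from the lists outside this rule, after their values were seen. Promoter windows came from RefSeq, with 62 of 89 named genes present. Alternatives covered background correction, offset, scaling, the authors' deposited normalized intensity, filters, probe choice, arrays fitted, the variance trend, array weights, the replicate block and each array left out.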

Additional observations from a re-analysis of the deposited data

Results flagged for a closer look

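For 22 of 89 named genes the called change with hairpin 5 differed from that with hairpin 1. This was by limma's test of the difference itself (adjusted p under 0.05 over all genes), which 152 of 8228 genes passed (1.85%). The naming rule took some genes by this same test, so the count of 22 is partly fixed by that choice. The largest was Acta2, higher with hairpin 5 by 2.41 on the log2 scale, followed by Actg2 at 1.61. No hairpin 1 array detected Actg2, so its 1.61 is not a measured size. Cav1 (0.74), Dcn (0.72), Ppl (0.53), Vcam1 (0.41) and Ccn2 (0.30) were also higher with hairpin 5. Lower with hairpin 5 were Dennd10 (-0.93), Kpna1 (-0.85), Ccn5 (-0.84), Medag (-0.83), Il11 (-0.72), Cdk2 (-0.69), Inmt (-0.65), Msmo1 (-0.52), Xbp1 (-0.46), Mmp9 (-0.43) and Nt5e (-0.36). Chac1 (-0.76), Gsta1 (-0.75), Prl2c4 (-0.62) and Prl2c3 (-0.50) rose with both hairpins and less with hairpin 5. Groups of 3 arrays were too small for the test of single outlying samples.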

How the results depend on the processing

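Tm4sf1 kept its direction and its call in all 21 alternatives, from -1.75 to -0.95. The 289 calls of hairpin 5 against scramble became 15 with median scaling (4 higher and 11 lower, against 110 and 179), 170 with no detection filter, 98 without the dimmest array of each group, and 145 to 257 with each array left out in turn. For hairpin 1 against scramble the 480 calls became 21, 316 and 172 under the same 3 settings, and 273 to 356 with arrays left out. For hairpin 5 against hairpin 1 the 152 calls became 2 with median scaling, 83 with no variance trend, 43 without the dimmest arrays, and 80 to 160 with arrays left out. In 4TO7 the 2 calls became 0 with median scaling, with no variance trend and with only the compared arrays (205, 582 and 616 genes at an unadjusted limma p under 0.05), and 1 to 3 with arrays left out. Of the 78 called genes that the naming rule took besides Tm4sf1, 14 passed in every alternative, 64 failed with median scaling (with sizes 0.812 to 1.29 times those reported) and 35 in some other alternative. The causes were not tested. Counts within lists without the dimmest arrays were chosen after seeing the data.

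With the replicate number as a block, although the numbers did not pair the arrays, 262 genes were called with hairpin 5 (100 higher and 162 lower), 441 with hairpin 1 and 142 between the hairpins. Dim genes were limited by signal over background, and their changes depend on its correction.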

Other observations

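Most of the called genes lay outside the gene lists. Of 289 called genes 223 were on no list, and of 701 measured list members 66 were called. Among those outside, Dapk2, a calmodulin-regulated kinase linked to cell death and autophagy, stood at 7.91, 7.82 and 7.63 with scramble and 6.60, 6.81 and 7.01 with hairpin 5, without overlap. It fell by 0.98 (SE 0.154, limma adjusted p = 2.1e-04). Ptges3l, named for its likeness to a prostaglandin E synthase, stood at 5.88, 5.41 and 5.25 with scramble and 6.13, 6.08 and 6.66 with hairpin 5. It rose by 0.78 (limma adjusted p = 0.0158), its second probe gave 0.54, and 7 of 21 alternatives did not keep the call.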
